A study of Mus musculus with 10 samples.

Results

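The peaks described here are those that lie in and around 4 genes for transcription factors of the developing nervous system, Pax6, Olig2, Sox1 and Pax3, in mouse embryonic stem cells. They are every peak that overlaps the gene span on the mm9 genome build or the 20 kb on each side of it. The spans were chromosome 2 at 105509000-105537600 for Pax6, chromosome 16 at 91225804-91228934 for Olig2, chromosome 8 at 12395295-12399554 for Sox1 and chromosome 1 at 78097841-78193711 for Pax3. The windows held 198 of the 543779 peaks of all 10 libraries. H3K27me3 accounted for 90 of them after Adriamycin and 78 in untreated cells. H3K4me3 had 14 peaks and RNA polymerase II (Pol II) had 1 peak in each condition. H3K79me2 and hnRNP L had 0 peaks in the 4 windows in either condition.

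The cells were of the R1E line, a single line of C57BL/6X129Sv mix background at less than 20 passages, grown in serum with leukemia inhibitory factor, which keeps stem cells undifferentiated. They were either exposed to 0.5 uM Adriamycin for 8 h or left untreated. Adriamycin (doxorubicin) is a topoisomerase II poison that breaks DNA. Chromatin immunoprecipitation and sequencing (ChIP-seq) was done for 5 targets with 1 library per target and condition, so no difference between the conditions has a replicate check and no p-value is given. The shortest list was that of hnRNP L after Adriamycin, with 1022 peaks, and the longest that of H3K27me3 in untreated cells, with 97639. The read depth is not known, so the lists may differ in sensitivity. A stretch without a peak was not shown to be without the mark.

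H3K27me3 is laid down by Polycomb repressive complexes and is found over genes that are held silent. H3K4me3 marks promoters, both active and poised, and H3K79me2 follows transcription into gene bodies. In embryonic stem cells many developmental regulators carry H3K4me3 and H3K27me3 together, a state called bivalent, and lose one or the other as cells choose a lineage. Pax6 and Pax3 are paired-box factors, Pax6 of the eye, forebrain and ventral spinal cord and Pax3 of the dorsal neural tube and neural crest. Olig2 is a basic helix-loop-helix factor of motor neuron and oligodendrocyte precursors. Sox1 is an SRY-related high-mobility-group factor and one of the earliest markers of the neural plate.

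The sequences before the annotated gene starts are shown for their CG content, since promoters rich in CG are where H3K4me3 and Polycomb marks are commonly found together. The RefSeq promoter table of build GRCm38.p6 held 3 of the 4 genes, Pax6 with 2 starts 13.6 kb apart, Olig2 and Sox1. The 250 bases before each start are given 5′ to 3′ on the plus strand, and capitals mark each CG dinucleotide. These coordinates are on GRCm38.p6 and were not carried over to mm9, and the peak distances given below are from the ends of the mm9 spans, not from these starts.
Pax6, first start (chr2:105668646-105668895): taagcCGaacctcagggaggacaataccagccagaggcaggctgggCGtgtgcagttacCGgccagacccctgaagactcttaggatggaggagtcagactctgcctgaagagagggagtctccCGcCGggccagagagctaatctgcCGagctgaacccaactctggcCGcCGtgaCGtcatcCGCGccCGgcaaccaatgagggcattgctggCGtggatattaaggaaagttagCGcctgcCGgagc
Pax6, second start (chr2:105682213-105682462): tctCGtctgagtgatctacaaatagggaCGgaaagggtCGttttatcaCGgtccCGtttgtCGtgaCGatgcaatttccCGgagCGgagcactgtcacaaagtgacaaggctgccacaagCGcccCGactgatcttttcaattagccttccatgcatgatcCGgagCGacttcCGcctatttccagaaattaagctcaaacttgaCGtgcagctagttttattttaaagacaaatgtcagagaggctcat
Olig2 (chr16:91225300-91225549): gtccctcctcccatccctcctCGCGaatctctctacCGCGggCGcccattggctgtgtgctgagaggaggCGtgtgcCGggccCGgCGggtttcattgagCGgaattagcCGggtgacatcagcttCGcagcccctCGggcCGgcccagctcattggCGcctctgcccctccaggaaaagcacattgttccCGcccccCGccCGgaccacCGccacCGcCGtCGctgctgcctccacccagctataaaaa
Sox1 (chr8:12395269-12395518): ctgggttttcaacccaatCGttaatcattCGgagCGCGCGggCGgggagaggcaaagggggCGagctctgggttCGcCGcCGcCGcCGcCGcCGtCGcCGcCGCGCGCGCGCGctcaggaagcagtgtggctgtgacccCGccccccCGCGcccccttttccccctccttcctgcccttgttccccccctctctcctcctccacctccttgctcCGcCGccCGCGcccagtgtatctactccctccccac
The Sox1 sequence held 29 CG, the Olig2 sequence 22, and each of the Pax6 sequences 15. Among all 32851 promoters of the table the median in the same 250 bases was 6, and at least 29 were found in 6.78%, at least 22 in 14.8% and at least 15 in 27.3%. The motif TATAAA, searched on both strands, was found in the Olig2 sequence and in 12.4% of all promoters. It was not found in the same bases before the Sox1 start or before either Pax6 start.

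In both conditions the 4 windows held wide stretches of H3K27me3 with narrower H3K4me3 peaks. Most H3K4me3 bases lay within the H3K27me3, except at Sox1 after Adriamycin (48.7%). After Adriamycin, H3K27me3 peaks covered 39.1% of the Pax6 window, 60.2% of the Olig2 window, 41.6% of the Sox1 window and 25.7% of the Pax3 window. In untreated cells they covered 42.8% at Pax6, 62.7% at Olig2, 56.9% at Sox1 and 35.5% at Pax3. H3K4me3 peaks covered 2.97 kb at Pax6, 4.71 kb at Olig2, 6.52 kb at Sox1 and 3.94 kb at Pax3 after Adriamycin. In untreated cells they covered 4.32 kb at Pax6, 3.58 kb at Olig2, 7.39 kb at Sox1 and 3.85 kb at Pax3. Sox1 had the most H3K4me3 of the 4 windows in both conditions.

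**Figure D1:**
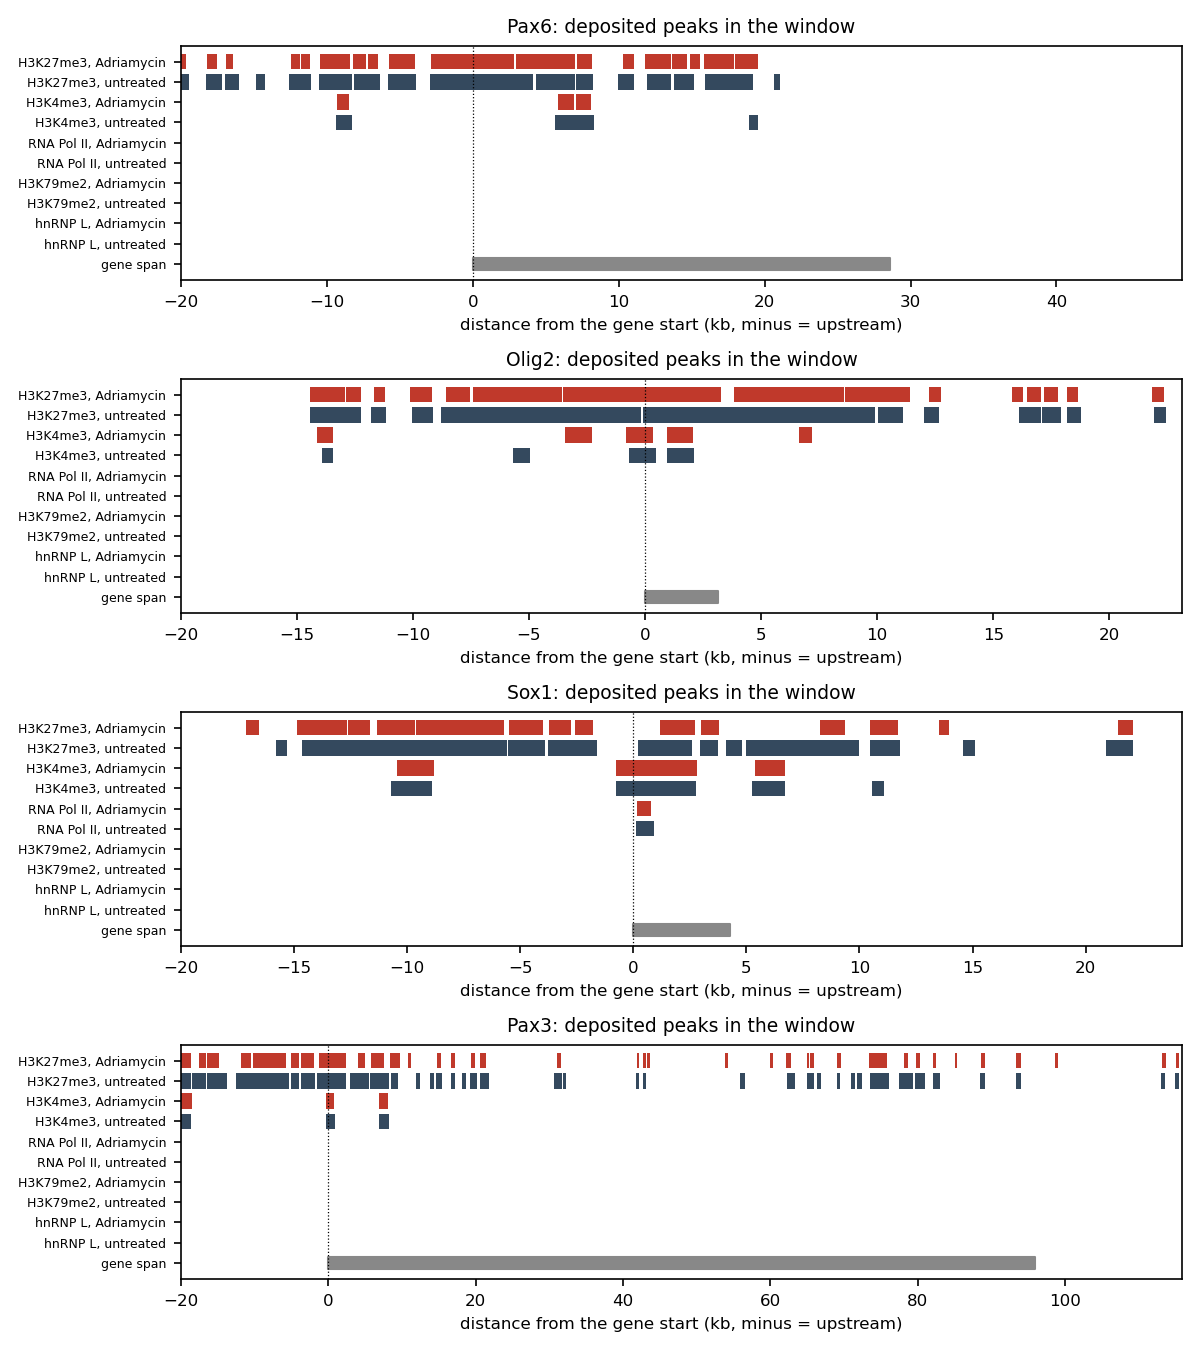
Deposited peaks of the 10 libraries in the 4 gene windows, with distance from the gene start in kb on the horizontal axis and 1 row per target and condition (red Adriamycin, blue-grey untreated). Bars are peaks to scale and the grey bar is the gene span. H3K27me3 lies on both sides of each start, H3K4me3 forms 3 to 5 peaks per window, Pol II has 1 peak at Sox1 in each condition, and the H3K79me2 and hnRNP L rows are empty.

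**Figure D2:**
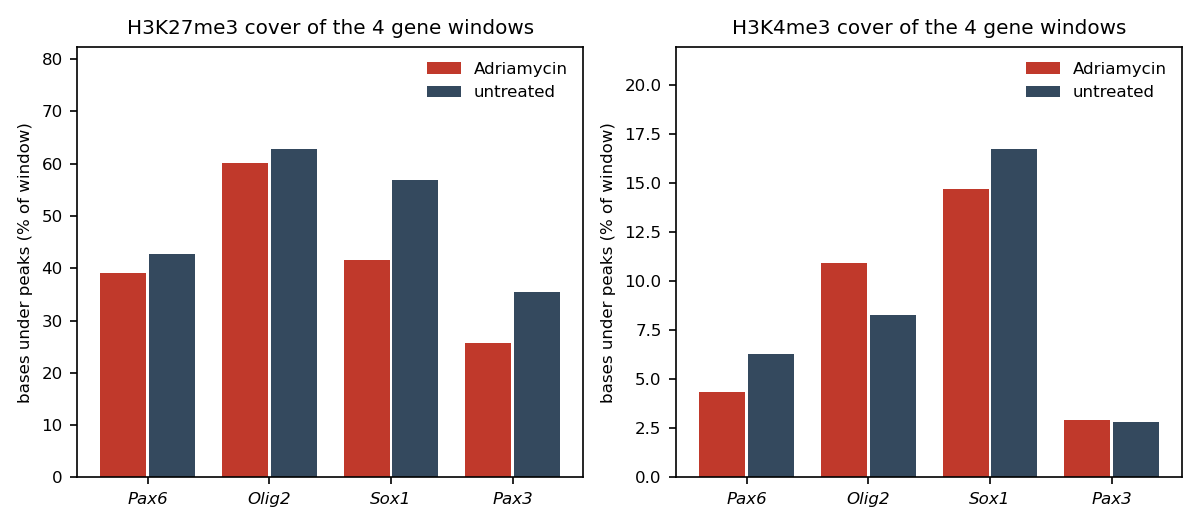
Share of each gene window under H3K27me3 peaks (left) and H3K4me3 peaks (right), in % of the window, with Adriamycin bars left of untreated bars and 1 library per bar. H3K27me3 covered 60.2% after Adriamycin and 62.7% in untreated cells at Olig2, and 41.6% after Adriamycin and 56.9% in untreated cells at Sox1. The small differences at Pax6 and Olig2 change sign over the Pax6 gene span alone and with Olig2 peaks within 1 kb merged, and the H3K4me3 bars at Olig2, Sox1 and Pax3 change order with the flank.

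H3K4me3 and H3K27me3 lay together. After Adriamycin 13 of 14 H3K4me3 peaks of the windows overlapped an H3K27me3 peak of the same condition, where 23.5% of all H3K4me3 peaks of that list did. In untreated cells 14 of 14 did, against 28.1% of that list. Both list shares are over all H3K4me3 peaks, wherever they lie, while H3K27me3 covered 25.7 to 62.7% of these windows. The overlap was not compared with other places rich in H3K27me3. Counted in bases, 77.9% of the H3K4me3 cover of the 4 windows lay under H3K27me3 after Adriamycin and 90.4% in untreated cells. The share was 48.7% after Adriamycin and 83.8% in untreated cells at Sox1, and 84.2% after Adriamycin and 99.7% in untreated cells at Pax3. It was the other way round at Pax6, with 98.7% after Adriamycin and 87.9% in untreated cells, and at Olig2, with 100% after Adriamycin and 97.2% in untreated cells. Of the 14 H3K4me3 peaks, 1 overlapped Pol II in each condition, the one over the Sox1 start. Among all H3K4me3 peaks that overlap H3K27me3, 35.5% also overlapped Pol II after Adriamycin and 43.2% in untreated cells.

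The windows were also set against other places rich in H3K27me3. For comparison the genome was cut into 50 kb tiles, and the 2322 tiles with H3K27me3 over at least 20% of their bases, as a mean of both conditions, were used. No H3K79me2 peak of either condition was found in 70.3% of these tiles, no hnRNP L peak in 98.3% and no Pol II peak in 22.8%. The nearest H3K79me2 peaks lay 237.9 kb from the Pax6 start, -25.8 kb from the Olig2 start, 80.1 kb from the Sox1 start and -227.7 kb from the Pax3 start after Adriamycin (minus is upstream of the gene). In untreated cells they lay 232.1 kb from Pax6, -26.9 kb from Olig2, 79.9 kb from Sox1 and -227.5 kb from Pax3. The nearest hnRNP L peak of either condition was 1911.0 kb from a start, at Sox1 after Adriamycin.

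Pax6 had no H3K4me3 peak within 1 kb of its start in either condition, and its H3K4me3 lay on both sides of it. The ends of the Pax6 span are rounded, so its start is less exact than those of the other genes. RefSeq lists a second start inside the gene, 13.6 kb from the first on GRCm38.p6. Where either RefSeq start lies among these peaks on mm9 was not tested. The first region was upstream, with a peak at -9.27 to -8.46 kb (score 303.6) after Adriamycin and at -9.34 to -8.28 kb (score 238.37) in untreated cells. In the RefSeq annotation of GRCm38.p6 the genes within 50 kb on that side are Paupar and Gm35946, both for long noncoding RNAs. The second region was inside the gene. Adriamycin cells had a pair of peaks there, at 5.86 to 6.97 kb (score 230.85) and 7.07 to 8.11 kb (score 131.66), and untreated cells had 1 peak of 2643 bp at 5.65 to 8.30 kb (score 589.08). A further peak, at 18.95 to 19.56 kb (score 76.65), was found in untreated cells and had no partner after Adriamycin. The score is the peak caller's own value for a peak, grows with its significance, and serves here to describe peaks within a list.

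H3K27me3 at Pax6 lay over the start. The widest peak ran from -2.86 to 2.82 kb (5688 bp, score 850.4) after Adriamycin and from -2.92 to 4.12 kb (7043 bp, score 1561.83) in untreated cells. Within the gene span the cover was 15.8 kb after Adriamycin and 15.7 kb in untreated cells, and in the upstream 20 kb it was 11.1 kb after Adriamycin and 13.6 kb in untreated cells. The 20 kb downstream of the gene had 0 peaks of any target in either condition. Joined over gaps of up to 3 kb, the domain over the start was 32.0 kb long after Adriamycin and 41.9 kb in untreated cells. Such lengths depend on the joining gap, and other gaps were not tried. After Adriamycin further upstream peaks ended at -16.41 kb, too far from the next peak at -12.44 kb to be joined. In untreated cells a weak peak at -14.82 to -14.26 kb (score 53.55), without an Adriamycin partner, bridged this place.

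Olig2 was the most fully covered of the 4 genes. H3K27me3 peaks lay over 100% of its 3.13 kb span in both conditions, over 60.3% of the upstream 20 kb after Adriamycin and 62.2% in untreated cells, and over 53.8% of the downstream 20 kb after Adriamycin and 57.3% in untreated cells. The domain over its start was 27.2 kb long after Adriamycin and 27.1 kb in untreated cells. It was divided differently into peaks. After Adriamycin the 3 widest were 3844, 6835 and 4726 bp, and in untreated cells the 2 widest were 8586 and 10010 bp. The peak over the start ran from -3.55 to 3.28 kb (score 1887.94) after Adriamycin and from -0.09 to 9.92 kb (score 1220.95) in untreated cells. The highest score was at 3.84 to 8.57 kb (2879.25) after Adriamycin and at -8.78 to -0.19 kb (3100) in untreated cells. Exactly 3100 was also the score of an untreated H3K4me3 peak at Sox1 and an untreated H3K27me3 peak at Pax3. Whether it is a set value of the peak caller was not tested.

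H3K4me3 covered the Olig2 start in both conditions, at -0.82 to 0.35 kb (1178 bp, score 408.3) after Adriamycin and at -0.71 to 0.47 kb (1186 bp, score 264.05) in untreated cells. A second peak inside the gene had nearly the same limits, 0.94 to 2.06 kb after Adriamycin and 0.94 to 2.12 kb in untreated cells. In the flanks a peak at -14.15 to -13.45 kb (score 70.95) after Adriamycin had a partner at -13.90 to -13.43 kb (score 110.78) in untreated cells. Peaks at -3.45 to -2.30 kb (score 151.35) and 6.63 to 7.18 kb (score 53.22) were found after Adriamycin without an untreated partner, and a peak at -5.69 to -4.95 kb (score 67.84) in untreated cells without an Adriamycin partner. The bases under H3K4me3 in both conditions were 46.9% of those in either at Olig2, and a smaller share was found in 5.96% of 8217 tiles with at least 5% H3K4me3. This share was 68.7% at Pax6, 86.1% at Sox1 and 92.3% at Pax3, and the median tile had 77.5%. The Pax3 window itself was below the 5% entry level, with 2.90% H3K4me3 after Adriamycin and 2.84% in untreated cells.

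Sox1 differed from the other genes in having Pol II and a wide H3K4me3 peak at its start. The Pol II peak lay at 0.18 to 0.77 kb (591 bp, score 83.82) after Adriamycin and at 0.13 to 0.91 kb (779 bp, score 294.72) in untreated cells. Each was the partner of the other, where 73.9% of all Adriamycin Pol II peaks and 52.0% of all untreated ones had a partner. The log2 ratio of Pol II covered length, Adriamycin over untreated, was -0.40 in the Sox1 window and -0.50 over the whole lists. The H3K4me3 peak over the start ran from -0.75 to 2.82 kb (3568 bp, score 2467.29) after Adriamycin and from -0.76 to 2.79 kb (3547 bp, score 3100) in untreated cells. Further H3K4me3 peaks lay upstream, at -10.46 to -8.83 kb after Adriamycin and -10.71 to -8.88 kb in untreated cells, and downstream, at 5.40 to 6.72 kb after Adriamycin and 5.27 to 6.71 kb in untreated cells. A weak peak at 10.54 to 11.10 kb (score 62.89) was in the untreated list alone.

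The Sox1 start itself was free of H3K27me3 peaks, while the starts of Pax6, Olig2 and Pax3 lay under one in both conditions. The gap around the Sox1 start was 2.96 kb long after Adriamycin and 1.83 kb in untreated cells. H3K27me3 resumed at 1.17 kb after Adriamycin and at 0.23 kb in untreated cells. With a peak of each mark required within 1 kb of the start, H3K4me3 and H3K27me3 were together at 2 of the 4 genes after Adriamycin (Olig2 and Pax3) and at 3 of the 4 in untreated cells (these and Sox1). Within 2.5 kb it was the same 3 genes in both conditions.

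The strongest H3K27me3 peak of the Sox1 window lay upstream, at -8.71 to -5.71 kb (3001 bp, score 1547.94) after Adriamycin and at -11.50 to -5.57 kb (5934 bp, score 2762.62) in untreated cells. Downstream of Sox1 a strong H3K27me3 region was largely missing from the Adriamycin list. In untreated cells a peak of 4974 bp ending 9.97 kb from the start (chromosome 8 at 12400297-12405270, score 2398.97) lay there. After Adriamycin 1106 bp of that stretch were under a peak, at 8.24 to 9.34 kb (score 586.46), and no H3K27me3 peak lay between 3.77 and 8.24 kb. The H3K4me3 peak at 5.40 to 6.72 kb stands in this gap and was the 1 H3K4me3 peak of the windows that overlapped no H3K27me3 after Adriamycin. The untreated list had 4203 H3K27me3 peaks with a score of at least 1000, and the median such peak had 93.5% of its bases under Adriamycin peaks. The Sox1 peak had 22.2%, and 0.238% of the 4203 had as little or less. The other 9 such peaks of the 4 windows had between 89.5% and 97.6%, so 1 of 10 was under 50%, where 0.952% of the 4203 were. This peak was singled out after the values were seen.

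By section, H3K27me3 covered 12.6 kb of the upstream 20 kb of Sox1 after Adriamycin and 13.4 kb in untreated cells, and 3.48 kb of the downstream 20 kb after Adriamycin and 8.53 kb in untreated cells. The domain joined across the start was 20.9 kb long after Adriamycin, ending at 3.8 kb, and 30.9 kb long in untreated cells, ending at 15.1 kb. After Adriamycin the gap at the start, 2.96 kb, was just short of the 3 kb joining limit. The untreated end was that of a weak peak at 14.58 to 15.10 kb (score 59.87) without a partner. Whether reads were present below the peak caller's threshold in the downstream stretch was not tested.

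Pax3, the longest of the genes at 95.9 kb, held 39 H3K27me3 peaks in each condition but less cover after Adriamycin, 34.9 kb against 48.3 kb in untreated cells. The mark was densest upstream of the start, over 70.1% of the 20 kb after Adriamycin and 89.5% in untreated cells. It covered 20.3% of the gene span after Adriamycin and 30.5% in untreated cells. The widest peak lay upstream, at -10.28 to -5.71 kb (4567 bp, score 1266.81) after Adriamycin and at -11.81 to -5.29 kb (6522 bp, score 3100) in untreated cells. The peak over the start ran from -1.23 to 0.90 kb (2127 bp, score 160.3) after Adriamycin and from -1.56 to 2.44 kb (4005 bp, score 920.98) in untreated cells. A second strong place was far inside the gene, at 73.40 to 75.89 kb (2482 bp, score 1576.27) after Adriamycin and 73.47 to 76.07 kb (2594 bp, score 2548.14) in untreated cells. The domain over the start, part of which reaches beyond the window, was 37.6 kb long after Adriamycin and 52.6 kb in untreated cells. Here too the lengths depend on the 3 kb joining gap. Inside the gene the Adriamycin domain ended at 11.2 kb, and further Adriamycin peaks began at 14.79 kb. In untreated cells weak peaks without a partner, at 11.93 to 12.43 kb (score 90.23) and 13.79 to 14.33 kb (score 63.36), bridged this place. The untreated domain ended at 21.8 kb.

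Each of the 3 H3K4me3 peaks at Pax3 had a partner in the opposite condition. The start carried a peak at -0.33 to 0.81 kb (1134 bp, score 266.72) after Adriamycin and at -0.28 to 0.89 kb (1178 bp, score 187.03) in untreated cells. The peak inside the gene was 1329 bp wide after Adriamycin (score 402.44) and 1327 bp in untreated cells (score 151.18). The widest was upstream, at -20.83 to -18.53 kb (2299 bp, score 1171.21) after Adriamycin and -20.93 to -18.65 kb (2276 bp, score 392.66) in untreated cells. In the RefSeq annotation of GRCm38.p6 the genes next to Pax3 on this side are Gm33152, a long noncoding RNA gene, and Gm2102, a protein-coding gene.

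H3K27me3 covered fewer bases after Adriamycin in 93.2% of the H3K27me3-rich tiles. In the windows the log2 of the covered length after Adriamycin over that in untreated cells was -0.13 at Pax6, -0.06 at Olig2, -0.45 at Sox1 and -0.47 at Pax3, and the median tile had -0.29 (quartiles -0.47 and -0.14). At Pax6 the ratio was 0.01 over the gene span alone, and at Olig2 0.01 when peaks within 1 kb were merged, so at these genes no direction is given. A ratio of at least 1.5-fold in either direction was called. No window was called for H3K27me3 with the 20 kb flanks, where 14.6% of tiles were called lower and 0.215% higher. With flanks of 5 kb the Sox1 ratio was -0.89, which is past 1.5-fold. Without the stretch of the downstream peak it was -0.23 with the 20 kb flanks. At Pax3 the ratio was -0.59 over the gene span and -0.63 when peaks scoring under 100 were left out, both past 1.5-fold.

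**Figure D3:**
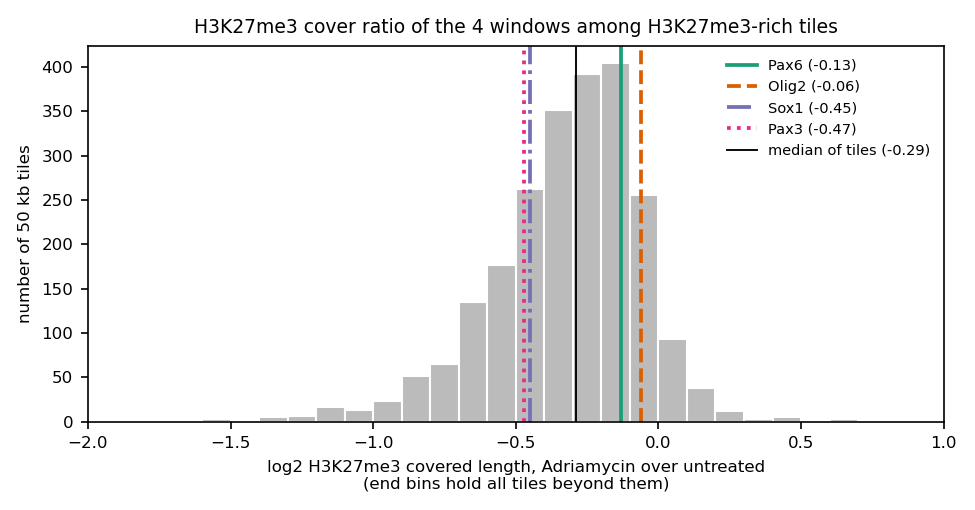
Number of 50 kb tiles (vertical axis) by the log2 ratio of the length under H3K27me3 peaks, Adriamycin over untreated (horizontal axis), over 2322 tiles, with the ratio of each gene window as a coloured line and the tile median (-0.29) as a black line. Olig2 (-0.06) and Pax6 (-0.13) lie above the median, and Sox1 (-0.45) and Pax3 (-0.47) below it, all within the bulk of the tiles.

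The median H3K27me3 peak was 832 bp wide after Adriamycin and 1412 bp in untreated cells at Pax6, 825 bp after Adriamycin and 915 bp in untreated cells at Olig2, and 965 bp after Adriamycin and 1500 bp in untreated cells at Sox1. At Pax3 it was 564 bp after Adriamycin and 924 bp in untreated cells. Over the whole lists the medians were 603 bp after Adriamycin and 715 bp in untreated cells. Pax6 had 20 peaks after Adriamycin and 16 in untreated cells, Olig2 had 16 after Adriamycin and 11 in untreated cells, and Sox1 had 15 after Adriamycin and 12 in untreated cells. The whole Adriamycin list had fewer peaks, 88365 against 97639 in untreated cells.

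**Figure D4:**
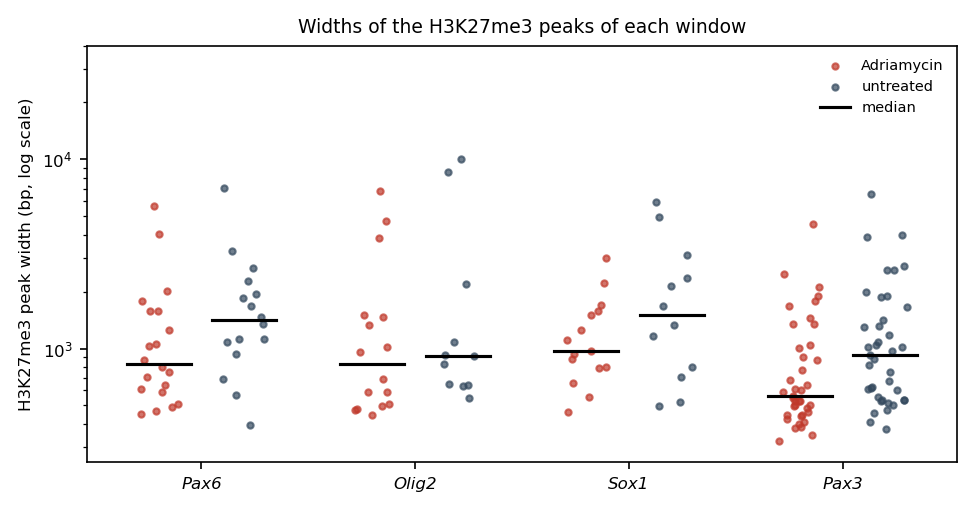
Width in bp (log scale) of each H3K27me3 peak of the 4 windows, red after Adriamycin and blue-grey in untreated cells, with a black line at the median. The median was lower after Adriamycin in each window, for example 564 bp after Adriamycin and 924 bp in untreated cells at Pax3, and the widest peaks of all, 8586 and 10010 bp at Olig2, were in the untreated list.

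The same bases were mostly covered in both conditions. The share of H3K27me3 bases covered in both, of those covered in either, was 82.9% at Pax6, 88.3% at Olig2, 63.6% at Sox1 and 61.4% at Pax3. It was 50.5% over the whole lists and 63.5% in the median tile, and a lower share was found in 93.1% of tiles for Pax6, 97.7% for Olig2, 50.1% for Sox1 and 42.8% for Pax3. Bases covered after Adriamycin alone were 1.36 kb at Pax6, 1.12 kb at Olig2, 1.45 kb at Sox1 and 3.26 kb at Pax3. Bases covered in untreated cells alone were 3.88 kb at Pax6, 2.19 kb at Olig2, 8.26 kb at Sox1 and 16.6 kb at Pax3.

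**Figure D5:**
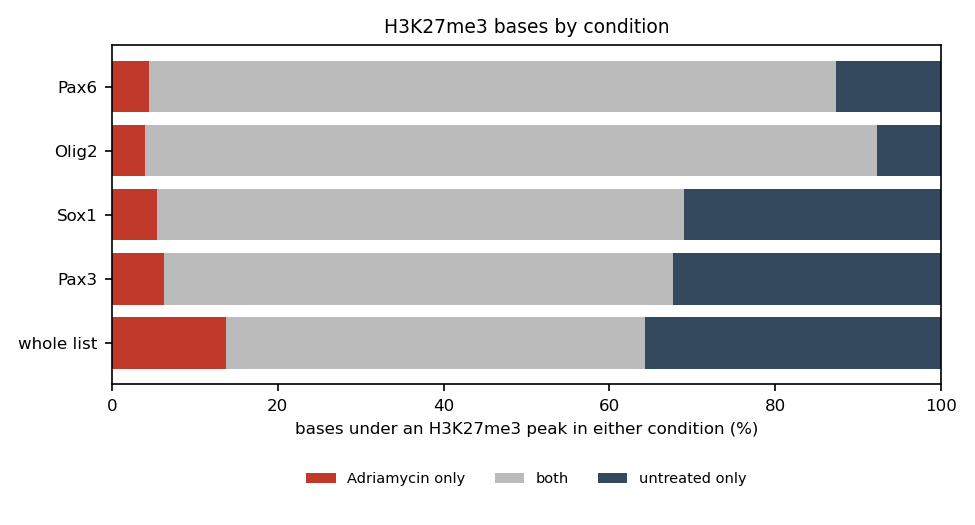
Bases under an H3K27me3 peak in either condition, in %, divided into Adriamycin only (red), both (grey) and untreated only (blue-grey), for the 4 windows and the whole lists. The shared part was largest at Olig2 (88.3%) and Pax6 (82.9%), 63.6% at Sox1 and 61.4% at Pax3, and 50.5% over the whole lists.

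A partner of a peak is here any peak for the same target that shares 1 bp or more with it in the opposite condition. After Adriamycin 82 of 90 H3K27me3 peaks of the windows had an untreated partner (91.1%, exact 95% Clopper-Pearson interval 83.2 to 96.1%), against 73.0% of the whole list. In untreated cells 64 of 78 had an Adriamycin partner (82.1%, interval 71.7 to 89.8%), against 58.8% of the whole list. The intervals cover counting error only, and neighbouring peaks are not independent. Strong peaks have partners more often, so peaks of like score were also compared. The list peaks were not matched for the local density of H3K27me3, which covered 25.7 to 62.7% of these windows. Where the mark is dense, an overlap of 1 bp is met more easily. At scores of 50 to 100, 27 of 35 Adriamycin peaks of the windows (77.1%) and 56.5% of the list had a partner, and 9 of 21 untreated peaks (42.9%) and 36.5% of the list. At 100 to 200 it was 25 of 25 Adriamycin peaks and 88.6% of the list, and 16 of 18 untreated peaks and 70.4% of the list. At 200 and above it was 30 of 30 Adriamycin peaks and 99.5% of the list, and 39 of 39 untreated peaks and 95.6% of the list, so strong peaks of the windows were near the background.

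For H3K4me3, 12 of 14 Adriamycin peaks of the windows (85.7%, interval 57.2 to 98.2%) had a partner, near the 84.2% of the whole list, and 11 of 14 untreated peaks (78.6%, interval 49.2 to 95.3%), where the whole list had 85.5%. The H3K4me3 peaks without a partner had scores of 53.22 to 151.35. The log2 ratio of H3K4me3 covered length was -0.54 at Pax6, 0.40 at Olig2, -0.18 at Sox1 and 0.03 at Pax3. No window passed 1.5-fold, where 10.7% of tiles were called lower and 3.66% higher. These tiles had at least 5% H3K4me3, which the Pax3 window did not reach. Over the gene span alone the ratio was -0.16 at Olig2, 0.01 at Sox1 and -0.06 at Pax3, so the direction at these genes depends on the flank. At Pax6 it was -0.59 there, just past 1.5-fold. The Olig2 ratio was 0.73 with flanks of 5 kb, and both of its H3K4me3 peaks found after Adriamycin alone lie outside the gene span.

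The windows were compared with each other by the mean absolute difference of their percent cover over 4 targets (without hnRNP L) and both conditions, 8 values in all. Pax6 and Pax3 were the closest pair (3.20 percentage points), and Olig2 was closest to Sox1 (4.95). The largest difference was between Olig2 and Pax3 (9.39). Of the 52831 tiles of the genome, 447 were closer to Pax6 than Pax3 was and 194 were closer to Olig2 than Sox1 was, so these pairs were not the closest matches in the genome. For the most different pair, 43272 tiles were closer to Pax3 than Olig2 was, and 792 were closer to Olig2 than Pax3 was. The larger count takes in every tile without a peak of these targets, because cover at Pax3 was low, so it does not show likeness. Pol II and H3K79me2 had no peak at Pax6, Olig2 and Pax3, so the differences rest mainly on H3K27me3 and H3K4me3. Windows differ in length from each other and from the tiles.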

How the data were processed

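The data were 10 deposited peak lists, 1 per target and condition. Per the submitters' processing notes, CASAVA 1.8.2, MACS 1.4.1 and build mm9 were used. The sources used here do not give the input control, read depth or duplicate handling. Each deposited list gives a chromosome, start, end, name and score per peak, and the score is the authors' own value, from 50 to 3233.06. The authors deposited 1 list for each library.

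The members and comparison lists were chosen with earlier results of these data known. Gene spans on mm9 were extended by 20 kb. Spans were 28.6 kb for Pax6, whose ends are rounded, 3.1 kb for Olig2, 4.3 kb for Sox1 and 95.9 kb for Pax3. RefSeq lengths on GRCm38.p6 are 29.5, 3.1, 4.0 and 95.9 kb. The gene start is the end of the span given by the strand, plus for 3 genes and minus for Pax3 (background knowledge). All 4 genes are reported with all their peaks. Single peaks are named at the start and where the score is highest, and others were named after their values were seen.

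Cover is the number of bases under peaks. It was compared with 50 kb tiles whose mean cover of both conditions was at least 20% (H3K27me3) or 5% (H3K4me3). Widths, joined domains, the overlap per tile and the share of strong peaks kept were added after the values were seen. No annotation on mm9 was used here, so stem cell markers and further neural genes were not analysed here. The overlap and cover steps were tested on simulated peaks and returned what was planted. Python 3.11.15, numpy 2.4.6, scipy 1.17.1 and matplotlib 3.10.9 were used. Alternatives were other flanks, stricter or equal lists, merged peaks, stricter overlap and other tiles.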

Additional observations from a re-analysis of the deposited data

How the results depend on the processing

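No paired analysis was possible because each target and condition had 1 library. Of 54 alternative settings of the covered length ratios, 39 kept the direction, the side of the 1.5-fold call and a value within 1.5-fold. Over the gene span alone the log2 ratio of Adriamycin to untreated was 0.01 at Pax6, 0.00 at Olig2 and -0.59 at Pax3 for H3K27me3, and -0.59 at Pax6, -0.16 at Olig2, 0.01 at Sox1 and -0.06 at Pax3 for H3K4me3. With flanks of 5 kb it was -0.89 at Sox1 for H3K27me3, and -0.59 at Pax6, 0.73 at Olig2 and -0.02 at Pax3 for H3K4me3. With flanks of 50 kb it was -0.01 at Pax3 for H3K4me3 and -0.74 at Sox1 for Pol II. When peaks scoring under 100 were left out it was -0.63 at Pax3 for H3K27me3, and with peaks within 1 kb merged 0.01 at Olig2. Leaving out the Sox1 downstream stretch, chosen after seeing the data, gave -0.23. Among peaks of a score of at least 100, 100% of 55 Adriamycin H3K27me3 peaks of the windows had a partner (93.4% of the list). So did 96.5% of 57 untreated H3K27me3 peaks (82.6% of the list). For H3K4me3 it was 91.7% of 12 Adriamycin peaks (93.9% of the list) and 100% of 11 untreated peaks (93.8% of the list). The share of tiles called lower for H3K27me3 was 9.07% in 100 kb tiles and 24.6% with a mean cover of at least 10%. The cause was not tested. At a score of at least 100 the Sox1 Pol II ratio has no value, since its Adriamycin peak is weaker than that. H3K79me2 has no ratio with the 20 kb flanks, and with 50 kb it covered 2.04 kb after Adriamycin and 2.51 kb in untreated cells at Olig2 (-0.30). For Pol II with 50 kb the ratio was 0.22 at Olig2, and at Pax6 the cover was 0 kb after Adriamycin and 0.375 kb in untreated cells. Read depth, unknown here, limits what a missing peak shows.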

Other observations

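Beyond the windows the genes differed in their surroundings, measured as cover in 10 kb bins up to 100 kb from each start. The bin at 40 to 50 kb downstream of the Olig2 start held both marks, with 73.4% H3K27me3 after Adriamycin and 91.8% in untreated cells, 27.1% H3K4me3 after Adriamycin and 22.4% in untreated cells, and 13.8% Pol II after Adriamycin and 12.3% in untreated cells. In the RefSeq annotation of GRCm38.p6 the protein-coding gene within 50 kb on that side is Olig1, the paralogue of Olig2 in the oligodendrocyte lineage. H3K79me2 appeared upstream of Olig2, over 19.1% of the bin from -30 to -20 kb after Adriamycin and 14.2% in untreated cells, with Pol II over 12.6% after Adriamycin and 8.61% in untreated cells. H3K27me3 covered 5.88% of that bin after Adriamycin and 6.55% in untreated cells.

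Downstream of Sox1 the bin at 40 to 50 kb held no H3K27me3 and was covered by Pol II over 32.2% after Adriamycin and 45.9% in untreated cells, and by H3K4me3 over 16.6% after Adriamycin and 23.7% in untreated cells. Upstream of Pax6 a second Polycomb stretch lay at -70 to -50 kb. Its bin from -60 to -50 kb had 36.2% H3K27me3 after Adriamycin and 48.4% in untreated cells, and Pol II over 0% after Adriamycin and 14.4% in untreated cells. The whole Pol II lists also differed, with 54.7 Mb under peaks after Adriamycin and 77.4 Mb in untreated cells (log2 ratio -0.50). The lower Pol II cover in single bins was not separated from this list-wide difference. Around Pax3 no Pol II and no H3K79me2 peak was found within 100 kb on either side of the start in either condition.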
